A study of Caenorhabditis elegans with 4 samples.

Results

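The proteasome subunit genes of *Caenorhabditis elegans* were examined in mRNA from dissected gonads. The 32 genes are those whose name in the deposited gene table begins with pas, pbs, rpt or rpn followed by a number, out of 20389 genes in the table. Of these, 14 encode the core particle (7 pas and 7 pbs genes) and 18 the regulatory particle (6 rpt and 12 rpn genes), and the particles are described apart. All 32 passed the filter on low counts that left 10875 genes for testing, and no member was at 0 reads in any library.

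The series holds 4 libraries, 2 from met-2(n4256);him-8(tm611) and 2 from him-8(tm611) adult hermaphrodite gonads. The comparison addresses what loss of met-2, and with it most of the histone mark H3K9me2, does to transcripts of the gonad. The authors describe the mark as very low in such germ lines, and some may remain. met-2 encodes a histone methyltransferase needed for most of that mark. him-8 encodes a zinc finger protein needed for pairing and synapsis of the X chromosomes in meiosis. Both genotypes carry the him-8 deletion, so pairing of the X chromosomes is disrupted in all libraries, and a wild type is not part of the comparison. Because lines without met-2 lose their germ line over generations, homozygotes were taken soon after their separation from a balancer stock, and the values hold for such early, fertile animals. Each RNA preparation used 400 gonad arms and each library 1.2 µg of total RNA, and replicates came from separate sets of dissected gonads. Arms were cut at the spermatheca, so sheath and spermathecal cells of the soma can be present beside germ cells.

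The proteasome degrades proteins that carry chains of ubiquitin. Its core particle is a barrel of stacked rings. The alpha rings (pas genes) gate the entrance, and the beta rings (pbs genes) enclose the peptidase sites. The regulatory particle caps the barrel with a base, in which a ring of ATPases (rpt genes) unfolds the substrate, and a lid (rpn genes) that removes the ubiquitin chain. In the germ line of *C. elegans* ubiquitin-dependent degradation takes part in meiotic progression and in the passage from oocyte to embryo.

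Depth ranged between 14255714 and 49848077 reads assigned to genes per library. The mutated genes served as a check of the labels. met-2 was at 25.8 and 52.8 CPM (counts-per-million) in met-2;him-8 gonads, against 127 and 212 CPM in him-8 gonads, and him-8 was at 68.1 and 42.5 CPM against 67.2 and 74.1 CPM. CPM are scaled here by the trimmed mean of M-values (TMM). The log2 fold change of met-2 was -2.11 ± 0.46 (SE, unadjusted p = 0.00585, edgeR adjusted p = 0.886). The mutated gene itself thus did not pass the test described below. Germline markers summed to 10364 and 12976 CPM in met-2;him-8 libraries and to 9994 and 9732 CPM in him-8 libraries, while 6 sperm markers summed to no more than 33.3 CPM in any library. Over all genes tested, the genotypes were separate (no overlap between their libraries) with met-2;him-8 higher for 16.9% and lower for 19.8%. Of the 8 germline markers, gld-1, puf-5 and rme-2 were separate with met-2;him-8 higher (log2 fold changes of 0.35, 0.33 and 0.54). glh-1 was separate with met-2;him-8 lower (-0.31), 4 overlapped, and none passed. No marker of another tissue passed the test described below (edgeR adjusted p of 0.886 or more), but some were separate between genotypes. All 3 body wall muscle markers, unc-54 with the smallest unadjusted p (0.0479), were higher in both met-2;him-8 libraries (sums of 60.6 and 178 CPM) than in both him-8 libraries (46.4 and 42.2 CPM), and 2 of 4 intestine markers, the yolk protein genes vit-2 and vit-6, were higher (list sums of 577 and 541 CPM, against 357 and 350 CPM), with elt-2, which defines that tissue, under 1 CPM in every library. The 6 sheath and spermatheca markers summed to 507 and 1641 CPM in met-2;him-8 libraries and 735 and 984 CPM in him-8 libraries, and most of that sum was fln-1, at 345 and 1502 CPM against 523 and 759 CPM. Of the 6, 2 were separate with met-2;him-8 lower, the gap junction genes inx-8 and inx-9 of the sheath, 1 was separate with met-2;him-8 higher (ceh-18), and 3 overlapped. inx-8 was at 111 and 101 CPM in met-2;him-8 gonads, against 158 and 171 CPM in him-8 gonads, with a log2 fold change of -0.63 ± 0.21 (SE, unadjusted p = 0.0276, edgeR adjusted p = 0.886). inx-9 was at 41.3 and 31.2 CPM, against 46.8 and 46.1 CPM, with a log2 fold change of -0.36 ± 0.28 (SE). inx-8, inx-9 and lim-7 (log2 fold change -0.43) thus had estimates below 0, as most proteasome genes did. The estimates of ceh-18 (0.96), fln-1 (0.53) and fkh-6 (0.23) were above 0, and the median of the list was -0.06. Of 3 hypodermis markers, dpy-7 and rol-6 were under the filter and col-19 overlapped between genotypes. The part of these tissues in the values below was not tested. Fewer cells of a type and less RNA per cell cannot be told apart in bulk gonads.

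Proteasome transcripts were abundant in all 4 libraries, and those of the core particle stood above those of the regulatory particle. Together the 32 genes took 1.54% and 1.65% of TMM-scaled reads in met-2;him-8 gonads, against 1.79% and 2.03% in him-8 gonads. Levels of different genes were compared as CPM per kilobase of exon, since a longer transcript gives more reads. On that scale the median core gene was at 540 and 650 in met-2;him-8 gonads, against 706 and 709 in him-8 gonads. The median regulatory gene was at 300 and 275 in met-2;him-8 gonads, against 335 and 375 in him-8 gonads. The core median was thus 1.80 and 2.37 times the regulatory median in met-2;him-8 libraries, and 2.11 and 1.89 times in him-8 libraries. In met-2;him-8 libraries 10 and 11 of the 14 core genes lay above every regulatory gene, and in both him-8 libraries 12 did.

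**Figure D1:**
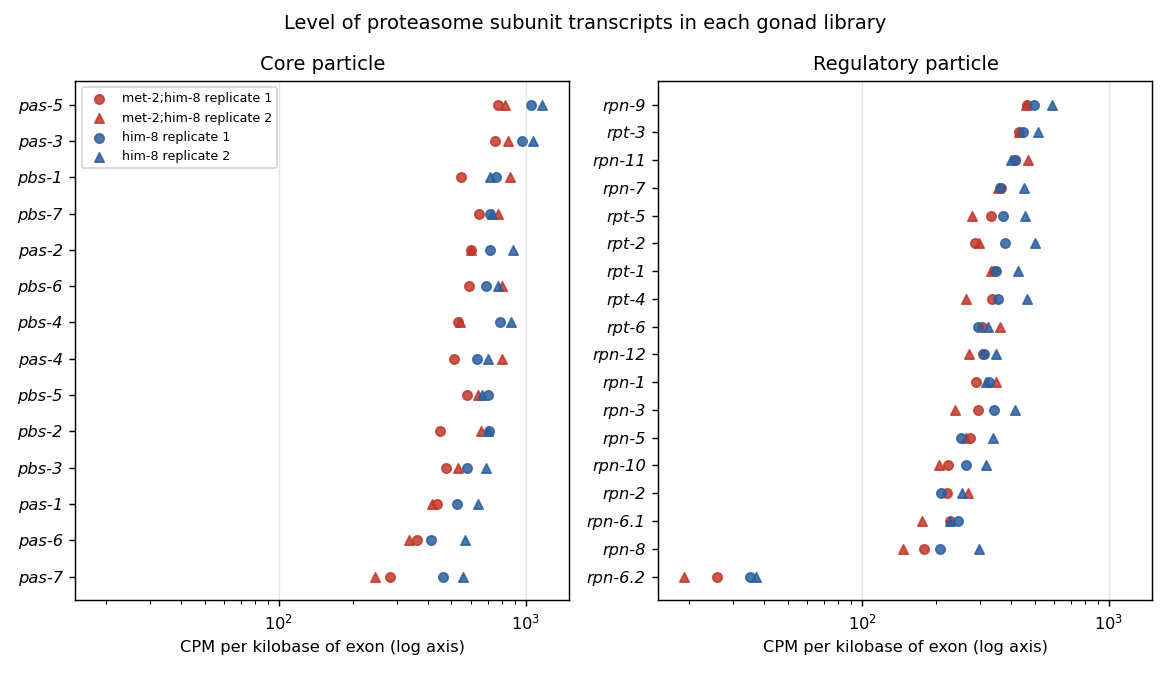
Level of each subunit gene in CPM per kilobase of exon on a log axis, with 1 point per library (met-2;him-8 in red, him-8 in blue, circles for replicate 1 and triangles for replicate 2) and genes ordered by mean rank over the libraries. Core genes lie to the right of most regulatory genes, pas-7 has the lowest mean rank in the core, at 281 and 246 in met-2;him-8 against 462 and 559 in him-8, and rpn-6.2 stands apart at 19 to 37.1.

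Within the core, the alpha subunit genes pas-5 and pas-3 had the highest mean rank. pas-5 was at 774 and 821 CPM per kilobase in met-2;him-8 gonads, against 1046 and 1160 in him-8 gonads, and pas-3 at 752 and 846, against 969 and 1074. Their ranges overlapped each other in met-2;him-8 and in him-8, so the order of these neighbours is not beyond their spread. In met-2;him-8 replicate 2 the beta subunit gene pbs-1 was the highest of all, at 862. The beta ring was more even than the alpha ring. Its highest gene was 1.43 and 1.62 times its lowest in met-2;him-8 libraries and 1.36 and 1.31 times in him-8 libraries, while in the alpha ring that ratio was 2.76 and 3.43 in met-2;him-8 and 2.52 and 2.07 in him-8. The low end of the alpha ring was pas-7, except that in him-8 replicate 1 pas-6 was at 415 and pas-7 at 462.

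In the regulatory particle, rpn-9, a scaffold of the lid, and the ATPase gene rpt-3 had the highest mean rank. The authors' RPKM (reads scaled by length and depth), 1 value per genotype, gave another order. There the lid scaffold gene rpn-7 was highest, at 700 in met-2;him-8 and 865 in him-8, against 582 and 787 for rpn-9. rpt-3 was at 662 and 747. The exon length used here for rpn-7, 1907 bases, exceeds its deposited interval (chromosome IV, 9316626 to 9317953). The part of gene lengths in this difference was not tested. rpn-9 was at 466 and 461 CPM per kilobase in met-2;him-8 gonads, against 499 and 589 in him-8 gonads. The lowest gene in every library was rpn-6.2, a paralog of the lid scaffold gene rpn-6.1. rpn-6.2 was at 25.9 and 19 CPM per kilobase in met-2;him-8 gonads, against 35.1 and 37.1 in him-8 gonads. That is 11.4% and 10.9% of the rpn-6.1 level per length in met-2;him-8, and 14.3% and 16.4% in him-8. Reads that fit both paralogs may have been split or dropped in counting, so the division between rpn-6.1 and rpn-6.2 is uncertain. The next lowest gene, rpn-8, was at 179 and 146 in met-2;him-8, against 207 and 297 in him-8. In him-8 replicate 2, rpn-2 and rpn-6.1 were below rpn-8, at 254 and 227.

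No subunit gene passed the test between genotypes. The edgeR quasi-likelihood test with Benjamini-Hochberg adjustment over 10875 genes called 0 of the 14 core and 0 of the 18 regulatory genes at an adjusted p below 0.05, and 0.0% of all genes tested. DESeq2 also called 0 of the 32 members, at 0.23% of its genes. At an unadjusted p below 0.05 in the edgeR test, 3 core genes and 1 regulatory gene were lower in met-2;him-8, against 3.01% of all genes tested, and no member was higher, against 1.83%. DESeq2 gave 1 such member, pas-7, against 1.88% of its genes. With 2 libraries per genotype the adjusted p-values of members lay between 0.886 and 0.995, and standard errors of the log2 fold changes between 0.18 and 0.28.

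The estimates lay mostly on 1 side. The log2 fold change of met-2;him-8 over him-8 was below 0 for 14 of 14 core genes and 15 of 18 regulatory genes, against 48.5% of all genes tested. Its median was -0.35 in the core and -0.22 in the regulatory particle, beside 0.02 over all genes tested. The genotypes were separate, with met-2;him-8 lower in each library, for 10 core genes and 11 regulatory genes, against 19.8% of all genes tested. They were separate with met-2;him-8 higher for 0 core genes and 1 regulatory gene, against 16.9%. Without TMM scaling, on library totals alone (a setting chosen after seeing the data), the counts that lay below were 9 and 7, against 18.1% of all genes.

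Genes as abundant as the subunits leaned the same way, but less far by median, direction and separation. A set of 754 genes with a mean between 256 and 1018 CPM holds 31 of the 32 members, and was chosen after the values were seen. In that set the median log2 fold change was -0.04 and 54.6% of genes had an estimate below 0. The genotypes were separate with met-2;him-8 lower for 30.9% of the set and higher for 19.1%. At an unadjusted p below 0.05 in the edgeR test, 10.5% of the set were lower in met-2;him-8 and 1.99% higher. By that count the members, with 4 of 32 lower (3 of 14 core and 1 of 18 regulatory), were close to the set. These genes are not independent of each other, and no test of the members against them was made.

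**Figure D2:**
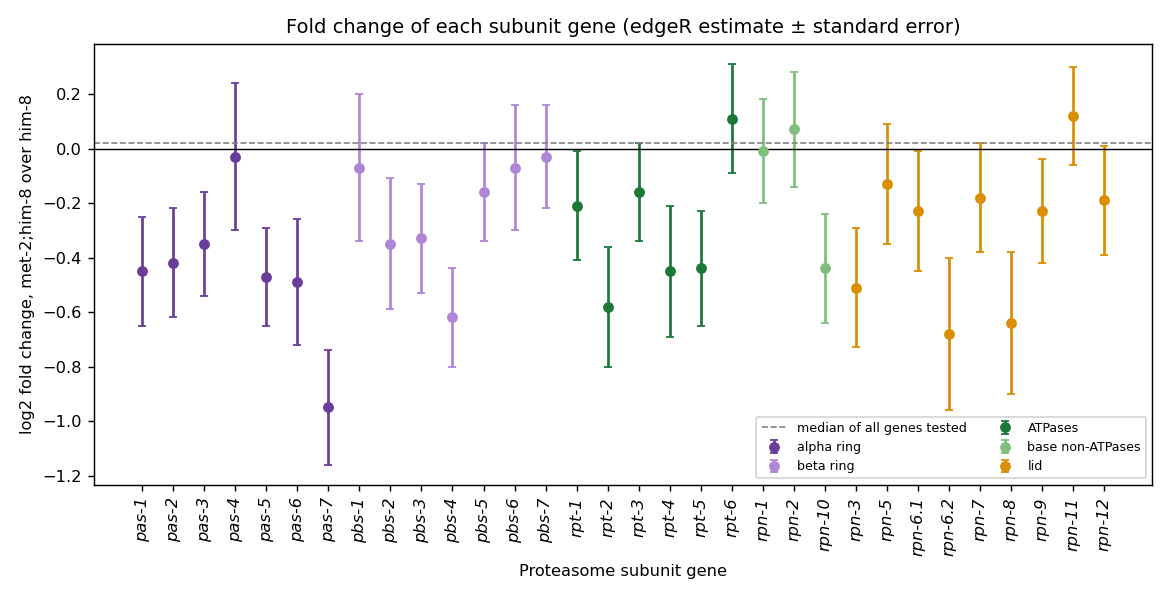
Log2 fold change (met-2;him-8 over him-8) of the subunit genes, as points with the standard error of the edgeR estimate (2 libraries per genotype), coloured by position in the proteasome. All 14 core estimates are below 0, pas-7 is lowest at -0.95, and rpt-6, rpn-2 and rpn-11 are the 3 genes above 0.

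The alpha ring gave the lowest median, -0.45. Of its 7 genes, 6 had both met-2;him-8 libraries below both him-8 libraries. pas-7 (ZK945.2, chromosome II, 10098948 to 10099794 in the deposited table) was at 275 and 241 CPM in met-2;him-8 gonads, against 453 and 547 CPM in him-8 gonads. The groups were separate, and the gap between them exceeded the spread within either. Its log2 fold change was -0.95 ± 0.21 (SE), the smallest unadjusted p of all members (0.00566), with an edgeR adjusted p of 0.886. As a share of the median of the other pas genes per length, pas-7 was at 50.7% and 35.1% in met-2;him-8, against 68.2% and 70.4% in him-8.

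The alpha genes pas-1, pas-2, pas-3, pas-5 and pas-6 had log2 fold changes between -0.49 and -0.35, with separate groups. Of these, pas-5 (F25H2.9, chromosome I, 10566345 to 10567187) was at 662 and 702 CPM in met-2;him-8 gonads, against 894 and 992 CPM in him-8 gonads. The met-2;him-8 libraries were close to each other and below those of him-8. The log2 fold change was -0.47 ± 0.18 (SE, unadjusted p = 0.0473, edgeR adjusted p = 0.886). pas-6 was at 357 and 334 CPM in met-2;him-8, against 410 and 560 CPM in him-8, where the him-8 replicates differed from each other by more than him-8 replicate 1 did from met-2;him-8. The exception in the ring was pas-4, at 450 and 710 CPM in met-2;him-8 and 563 and 618 CPM in him-8. Both him-8 values of pas-4 fell inside the met-2;him-8 range, and its log2 fold change was -0.03 ± 0.27 (SE).

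The beta ring was less uniform, with a median of -0.16 and separate groups for 4 of 7 genes. Its peptidase genes are given in full. pbs-5 (K05C4.1), the chymotrypsin-like subunit, was at 614 and 680 CPM in met-2;him-8 gonads, against 745 and 701 CPM in him-8 gonads. pbs-2 (C47B2.4), the trypsin-like subunit, was at 453 and 662 CPM, against 713 and 705 CPM. Both genes were lower in each met-2;him-8 library than in either him-8 library, by a narrow margin in replicate 2, with log2 fold changes of -0.16 ± 0.18 and -0.35 ± 0.24 (SE). pbs-1 (K08D12.1), the caspase-like subunit, was at 449 and 709 CPM in met-2;him-8 gonads, against 623 and 589 CPM in him-8 gonads. Its groups overlapped, since met-2;him-8 held both the lowest and the highest library, and the log2 fold change was -0.07 ± 0.27 (SE).

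Among the beta subunits without a peptidase site, pbs-4 (T20F5.2, chromosome I, 3908755 to 3909517) stood lowest. pbs-4 was at 427 and 432 CPM in met-2;him-8 gonads, against 630 and 694 CPM in him-8 gonads. Replicates were close in both genotypes and the groups were far apart, with a log2 fold change of -0.62 ± 0.18 (SE), an unadjusted p of 0.0174 and an edgeR adjusted p of 0.886. Per length it was at 94.7% and 75.7% of the median of the other pbs genes in met-2;him-8, against 111% and 122% in him-8. pbs-3 was at 401 and 450 CPM, against 490 and 583 CPM, with separate groups. The groups of pbs-6 and pbs-7 overlapped, with log2 fold changes of -0.07 and -0.03.

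The 6 ATPase genes of the base had a median of -0.32. rpt-2 (F29G9.5, chromosome V, 6016183 to 6017651) was at 425 and 441 CPM in met-2;him-8 gonads, against 558 and 738 CPM in him-8 gonads. Both met-2;him-8 libraries were below both him-8 libraries, and rpt-2 was the regulatory gene with an unadjusted p below 0.05 (0.0425), at a log2 fold change of -0.58 ± 0.22 (SE) and an edgeR adjusted p of 0.886. rpt-5 was at 498 and 417 CPM in met-2;him-8, against 554 and 683 CPM in him-8. rpt-4 was at 492 and 384 CPM, against 520 and 677 CPM. Their log2 fold changes were -0.44 ± 0.21 and -0.45 ± 0.24 (SE), and him-8 replicate 2 was the highest library for both. The deposited interval of rpt-4 (chromosome II, 42363 to 47371) also holds F23F1.9 and nfyc-1 on the other strand, and the library kit does not mark strand, so reads of these genes cannot be told apart where they overlap.

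rpt-1 and rpt-3 had separate groups by small margins. rpt-1 was at 516 and 502 CPM in met-2;him-8, against 529 and 651 CPM in him-8, and rpt-3 at 586 and 584 CPM, against 607 and 697 CPM. In both, him-8 replicate 1 was nearer to the met-2;him-8 libraries than to him-8 replicate 2, and the log2 fold changes were -0.21 ± 0.20 and -0.16 ± 0.18 (SE). rpt-6 differed from the rest of the ring in direction. It was at 430 and 509 CPM in met-2;him-8 and 415 and 456 CPM in him-8, with overlapping groups and a log2 fold change of 0.11 ± 0.20 (SE).

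Beside the ATPases, the base holds the large scaffolds RPN-1 and RPN-2, and RPN-10 joins base and lid. rpn-1, which also encodes a docking site for ubiquitin and its carriers, had the highest CPM of all members in each library, at 918 and 1110 CPM in met-2;him-8 gonads and 1039 and 1006 CPM in him-8 gonads. Per length it was near the middle of its particle, at 290 and 350 CPM per kilobase in met-2;him-8 and 328 and 317 in him-8. rpn-2 was at 696 and 850 CPM in met-2;him-8, against 663 and 805 CPM in him-8. Groups overlapped for both scaffolds, with log2 fold changes of -0.01 ± 0.19 and 0.07 ± 0.21 (SE). rpn-10, a ubiquitin receptor, was at 289 and 265 CPM in met-2;him-8, against 341 and 411 CPM in him-8, with separate groups and a log2 fold change of -0.44 ± 0.20 (SE, edgeR adjusted p = 0.886).

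The 9 lid genes had a median of -0.23, and 5 had both met-2;him-8 libraries below both him-8 libraries. rpn-11, the deubiquitinase that cuts the chain off the substrate, was the member that went the other way without overlap. It was at 516 and 583 CPM in met-2;him-8 gonads, against 513 and 496 CPM in him-8 gonads. The margin between the lowest met-2;him-8 and the highest him-8 library was small, and the log2 fold change was 0.12 ± 0.18 (SE, edgeR adjusted p = 0.975). Its partner in the lid, rpn-8, was at 221 and 180 CPM in met-2;him-8, against 256 and 366 CPM in him-8. For rpn-8 the groups were separate in the opposite direction, with a log2 fold change of -0.64 ± 0.26 (SE, edgeR adjusted p = 0.886).

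Among the lid scaffolds, rpn-3 was at 545 and 443 CPM in met-2;him-8 gonads, against 634 and 771 CPM in him-8 gonads (log2 fold change -0.51 ± 0.22, SE). rpn-9 and rpn-12 also had separate groups, with log2 fold changes of -0.23 and -0.19. rpn-5 and rpn-7 overlapped between genotypes, with log2 fold changes of -0.13 and -0.18. Of the paralogs, rpn-6.1 was at 374 and 287 CPM in met-2;him-8, against 403 and 373 CPM in him-8. The groups overlapped, since replicate 1 of met-2;him-8 nearly equalled replicate 2 of him-8. rpn-6.2 was at 40.4 and 29.6 CPM in met-2;him-8, against 54.6 and 57.8 CPM in him-8, which were separate groups (log2 fold change -0.68 ± 0.28, SE, edgeR adjusted p = 0.886).

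**Figure D3:**
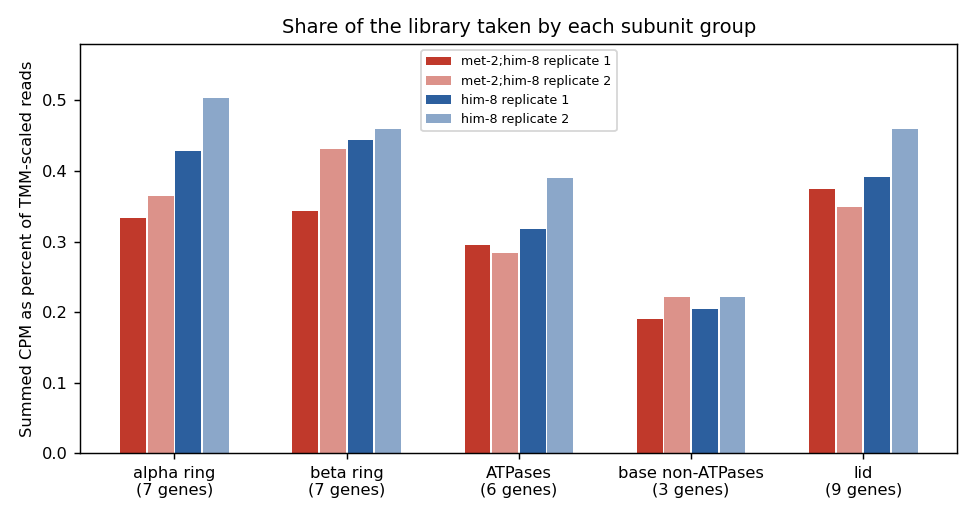
Summed CPM of each subunit group, as percent of TMM-scaled reads, with 1 bar per library (met-2;him-8 in red, him-8 in blue). In the alpha ring both met-2;him-8 bars (0.333% and 0.364%) are below both him-8 bars (0.429% and 0.503%), and in the base non-ATPases (0.190% and 0.222% in met-2;him-8, 0.204% and 0.222% in him-8) the genotypes overlap.

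Summed over members, core transcripts took 0.676% and 0.795% of TMM-scaled reads in met-2;him-8 libraries, against 0.872% and 0.962% in him-8 libraries. Regulatory transcripts took 0.859% and 0.855%, against 0.914% and 1.07%. Both sums were separate between genotypes after TMM scaling. For the regulatory sum the margin between the replicate 1 libraries was small and depends on that scaling. Their TMM factors were 1.11 in met-2;him-8 and 1.04 in him-8, and a higher factor lowers the scaled share. In the beta ring the sums were 0.343% and 0.431% in met-2;him-8, against 0.444% and 0.459% in him-8, so met-2;him-8 replicate 2 came near him-8. The ATPases took 0.295% and 0.284%, against 0.318% and 0.390%, and the lid 0.374% and 0.349%, against 0.391% and 0.459%.

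Replicates of 1 genotype also differed from each other. In met-2;him-8, replicate 2 over replicate 1 was above 0 on the log2 scale for 7 of 7 beta ring genes (median 0.25), with pbs-1 at 0.66, and below 0 for 8 of 9 lid genes (median -0.20). In him-8, replicate 2 over replicate 1 was above 0 for 26 of 32 genes, with a median of 0.02 in the beta ring, 0.27 in the alpha ring and 0.30 in the ATPases. Of the 754 genes as abundant as the members, the ratio was above 0 for 472 in met-2;him-8 (median 0.16) and 445 in him-8 (median 0.05). Across the 32 genes the replicate ratios of both genotypes had Pearson's r = -0.44 and Spearman's rho = -0.45, a description over genes that share the same 4 libraries.

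Each pair of single libraries gave more members below 0 than above. Of 32 members, 27 were lower in met-2;him-8 replicate 1 than in him-8 replicate 1, with a median log2 ratio of -0.22. Against him-8 replicate 2, 30 members were lower in met-2;him-8 replicate 1 (median -0.46). met-2;him-8 replicate 2 was lower for 23 members against him-8 replicate 1 (median -0.16) and for 24 members against him-8 replicate 2 (median -0.37). Of the 754 genes as abundant as the members, met-2;him-8 replicate 1 was lower for 507 and 503 against him-8 replicates 1 and 2 (medians -0.14 and -0.20). For met-2;him-8 replicate 2 those counts were 323 and 359 (medians 0.11 and 0.03). Over the genes tested that had reads in both libraries of a pair, the 4 counts, in the same order, were 5264, 5245, 5608 and 5302. Those above 0 were 5288, 5223, 5113 and 5330. In the fit across all genes, leaving out 1 library moved the count of members with an estimate below 0 to between 24, without met-2;him-8 replicate 1, and 31, without met-2;him-8 replicate 2. Such a fit has a lone library in 1 genotype, so its counts of members by unadjusted p are not given.

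**Figure D4:**
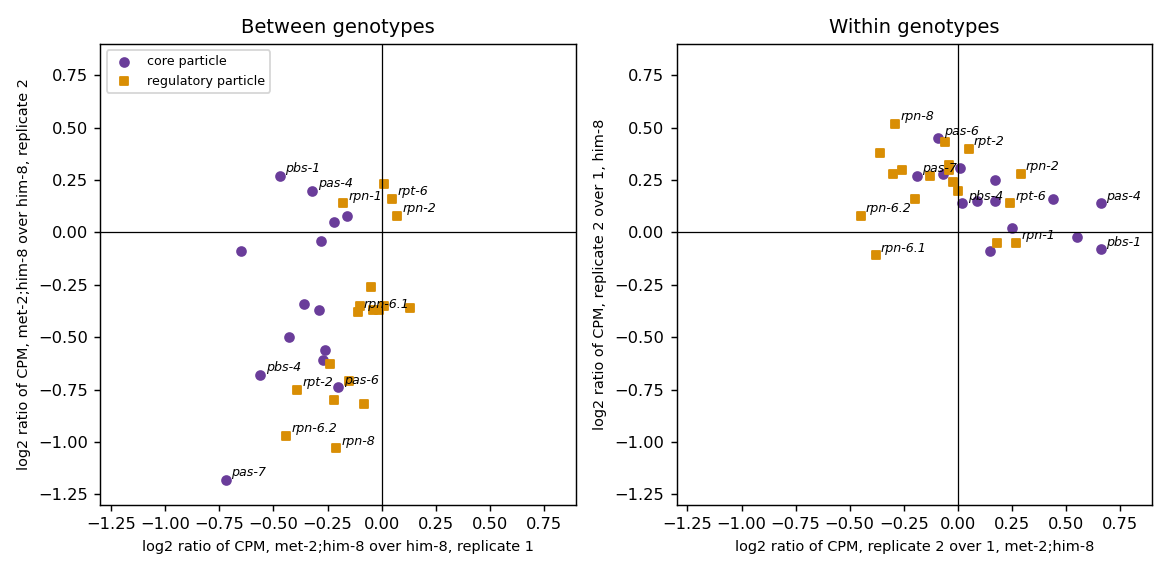
Left, log2 ratio of CPM between genotypes within replicate 1 (x axis) and within replicate 2 (y axis), and right, log2 ratio of replicate 2 over replicate 1 within met-2;him-8 (x axis) and within him-8 (y axis), with 1 point per subunit gene (circles core, squares regulatory). pas-7 is the lowest point on the left, at -0.72 and -1.18, and on the right the core genes pas-4 and pbs-1 reach 0.66 within met-2;him-8. Replicate numbers are not known to pair the libraries.

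The remaining proteasome genes and their partners were read from the same fit. dss-1, which encodes a small subunit of the lid under a name outside the chosen pattern, was at 118 and 133 CPM in met-2;him-8 gonads, against 196 and 223 CPM in him-8 gonads. Its groups were separate, with a log2 fold change of -0.74 ± 0.21 (SE), an unadjusted p of 0.0159 and an edgeR adjusted p of 0.886. The ubiquitin receptor gene rpn-13, listed in the table by its sequence name C56G2.7, was at 444 and 489 CPM in met-2;him-8 and 484 and 517 CPM in him-8, with overlapping groups. The activator gene psme-3 and the assembly chaperone gene psmd-9 overlapped between genotypes, with log2 fold changes of 0.02 and 0.05.

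Lists of genes that act with the proteasome gave 0 calls at an adjusted p below 0.05 in the edgeR test, and dss-1 was the 1 gene in them with an unadjusted p below 0.05. The 12 genes of ubiquitin and substrate delivery had a median log2 fold change of -0.09, with rad-23, a shuttle for ubiquitinated proteins, at -0.27. The 4 proteasome-associated factors, dss-1 among them, had a median of -0.33. The 5 genes of SKN-1A processing, which in *C. elegans* activate proteasome genes when the proteasome is impaired, had a median of -0.02. In that list sel-1 had the smallest p, at -0.35, and skn-1 itself was at 84.9 and 220 CPM in met-2;him-8 and 111 and 198 CPM in him-8, with overlapping groups.

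Complexes related to the proteasome or supplying its substrates were read in the same way. The 7 genes of the COP9 signalosome, whose architecture resembles that of the lid, had a median of -0.24, with the shared subunit gene cif-1 at -0.36. For the anaphase-promoting complex, 11 of 12 listed genes were found, with a median of 0.01 and apc-2, its cullin subunit, at -0.38. The 10 genes of the cullin ligase core had a median of -0.08, with the adaptor gene skr-1 at -0.46. Beside these medians, all genes tested had a median of 0.02.

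All members are autosomal, and chromosome I carries the most of them (10 genes). Chromosomes II and III carry 7 each, V carries 5 and IV carries 3, while X, with 11.9% of the genes tested, carries none. In the RPKM values the authors deposited, 1 per genotype from both replicates, the median core gene was at 1008 RPKM in met-2;him-8 and 1147 RPKM in him-8, and the median regulatory gene at 457 and 604 RPKM.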

How the data were processed

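Poly(A) RNA of 4 gonad libraries was sequenced, and per the labels the authors used STAR and Cuffdiff 2.2.1. They deposited estimated counts per gene and library, not scaled to depth, whose counting tool and annotation are not given in the sources used here. A second deposited table gives the authors' RPKM per genotype, and columns of their comparison (fold change, test statistic, p and q), which were not used. That table names no build. Its starts count from 0 and are printed from 1. Exon lengths came from the WBcel235 annotation.

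The planned tests assumed whole counts, so the estimates, of which 53 to 66 genes per library were not whole, were rounded. Testing used edgeR 4.0.16 under R 4.3.3 (quasi-likelihood, TMM, filterByExpr defaults, no replicate block, two-sided), adjusted over all genes tested, at 0.05. Standard errors were the log2 fold change over the square root of F. The fits were tested on simulated data.

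Members and lists were chosen with earlier results of these data known. The rule accounted for every member by particle, with values per library for peptidases, ATPases, ubiquitin receptors, the deubiquitinase, paralogs, the 3 smallest p-values and the level extremes. Genes of the other pathway lists were named at an unadjusted p below 0.05 or as the smallest p of their list, while tissue markers were given as lists with examples. skn-1, and the genes psme-3 and psmd-9, were added after their values were seen. Alternatives were RLE, upper quartile and no TMM scaling, no filter, DESeq2 1.42.0, a replicate block, longest transcript lengths and each library left out. P-values rest on the spread between 2 libraries per genotype, which edgeR and DESeq2 draw toward that of other genes.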

Additional observations from a re-analysis of the deposited data

How the results depend on the processing

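In each alternative 0 core and 0 regulatory members passed an adjusted p of 0.05, and 24 of 32 members kept their direction in all. Leaving out 1 library moved the core median log2 fold change between -0.45 and -0.25 and the regulatory median between -0.35 and -0.11. Directions turned for pas-4 (-0.40 to 0.28 over the libraries left out), pbs-1 (-0.44 to 0.24), pbs-6 (-0.32 to 0.14), pbs-7 (-0.18 to 0.10), rpt-6 (-0.03 to 0.24), rpn-1 (-0.17 to 0.13), rpn-2 (-0.09 to 0.23) and rpn-5 (-0.34 to 0.10), and rpn-1 was at 0.01 under RLE scaling and under DESeq2. Without each library in turn the lone library was assumed to vary like the other genotype. Same-numbered libraries deviated together (r = 0.36 across 10875 genes), but the labels do not say that numbers pair them. With the number as a replicate block, 144 of all genes (1.32%) passed instead of 0, none of them a member, and the core and regulatory medians were -0.36 and -0.22. DESeq2 passed 25 genes and edgeR without a filter 113 (0.659%), none of them a member. The smallest adjusted p of a member was 0.0523, for pas-7 with the block, and over all alternatives pas-7 ranged between 0.0523 and 1.0. The cause of these differences was not tested. Median levels per length were the same with longest transcripts (672 core, 322 regulatory). Among the members that length differs from the exon length only for rpn-2 and rpn-7, so the setting could hardly move the medians. With 2 libraries per genotype, standard errors of 0.18 to 0.28 limit what can be told apart.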
